A study of Homo sapiens with 7 samples.

Results

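The genes described here are 6 enzymes of cholesterol synthesis (HMGCS1, IDI1, FDPS, FDFT1, SQLE and DHCR7) and INSIG1, a regulator of the same pathway. They are 7 of the 16044 genes with sense reads in the 3 deposited count tables, and were taken by gene symbol. The data are 3′READS counts from HEK293, a human embryonic kidney cell line in long use, after transfection of siRNAs. The study asked whether the nuclear poly(A) polymerases Star-PAP, PAPα and PAPγ act on transcripts that end at different polyadenylation sites (PASs). Batch 1 held 1 library each of cells with a control siRNA (siCtrl) and with knockdown (KD) of Star-PAP (siStar-PAP), PAPα (siPAPα) or PAPγ (siPAPγ). A library with PAPα and PAPγ knocked down together (double KD) was set against the siCtrl library of batch 1, though the labels do not say in which batch it was made, and batch 2 held a further siCtrl and a further siStar-PAP library made with the 3′READS+ protocol. All 7 libraries came from siRNA-transfected cells, and no untransfected library was among them. With 1 library per condition and batch, differences within batch 1 have no replicate, and the intervals given cover counting error between 2 libraries only.

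Cholesterol is built from acetyl-CoA in the mevalonate pathway. HMGCS1 makes HMG-CoA near its start, IDI1 and FDPS carry isoprenoid units up to farnesyl diphosphate, and FDFT1, SQLE and DHCR7 act in the branch that leads to sterols only. When sterols in the endoplasmic reticulum fall, the SREBP transcription factors are released and activate the genes of the whole pathway, so that these genes are known to move together. INSIG1 holds the SREBPs back when sterols are plentiful and is itself an SREBP target. A poly(A) polymerase adds the tail after the RNA is cut at a PAS, a short way past a signal such as AAUAAA or AUUAAA, and a gene with several PASs in its last exon makes transcripts with shorter or longer 3′UTRs.

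The tables held 2362875 to 16245257 reads per library, and levels are given as RPM, the reads of a gene scaled to the library's total of PAS-supporting (PASS) reads, which was 4249376 to 25085659. A 3′READS read marks 1 transcript end, so RPM values need no correction for transcript length. TUT1, which encodes Star-PAP, had 83 reads in siCtrl and 2 in siStar-PAP of batch 1, a log2 ratio of −5.91. In batch 2 it had 6 and 4 reads, too few to check the label of that siStar-PAP library. PAPOLA, which encodes PAPα, was at 7.70% of siCtrl in siPAPα and at 6.24% in the double KD. It was also lower in siStar-PAP of batch 1, at 42.8% of siCtrl (71 and 44 reads, log2 ratio −1.22, −1.80 to −0.66). There the median log2 ratio of all genes was −0.49, and 19.0% of the genes with more than 50 reads had a lower ratio than PAPOLA. In siStar-PAP of batch 2 the log2 ratio of PAPOLA was −0.16, with an interval that included 0 (−0.84 to 0.52). PAPOLG, which encodes PAPγ, had 5 reads in siCtrl and 15 in the library labelled siPAPγ, with an interval of the log2 ratio of −0.32 to 3.03, so its counts do not check that label either. On similarly few reads, its log2 ratio was 1.95 (0.56 to 3.68) in siStar-PAP of batch 1 and 1.71 (0.36 to 3.42) in siPAPα. It was 1.31 (0.22 to 2.50) in siStar-PAP of batch 2 and −0.45 (−2.43 to 1.60) in the double KD. The libraries labelled siPAPγ and siStar-PAP of batch 2 are called by their labels here. The study reports immunoblots of each knockdown, with no apparent change of the other polymerases. Those measure protein, and the counts here measure RNA. Of the markers of HEK293 cells, INA was at 49.3 to 153 RPM, NEFL at 9.85 to 41.6 RPM and NEFM at 0.235 to 11.8 RPM with as few as 1 read, and PAX2 and LHX1 had 0 reads in at least 1 library. PTPRC, ALB and CDH5, markers of leukocytes, hepatocytes and endothelium, had 0 reads in every library, while COL1A1 of fibroblasts had up to 12 reads (2.38 RPM) and KRT5 of basal epithelium up to 4.

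The 7 genes did not move as 1 group against the siCtrl of batch 1. DHCR7 was above it in each of the 4 KD libraries, while HMGCS1, FDPS, SQLE and INSIG1 were below it in each. HMGCS1 was 5.78-fold lower in the library labelled siPAPγ. SQLE in siPAPα was below siCtrl only by a log2 ratio of −0.04, with an interval that included 0 (−0.22 to 0.15). With TMM factors it was at 0.30, and HMGCS1 in siStar-PAP was at 0.11. In bulk RNA, a lower level in all cells and in some of them cannot be told apart. Most genes were lower too. The median log2 ratio over all genes was −0.49 in siStar-PAP, −0.34 in siPAPα, −0.37 in siPAPγ, −0.44 in the double KD and −0.19 in siStar-PAP of batch 2, so each ratio is read beside this shift. The median of the 7 genes was −0.60, −0.22, −0.68, −0.44 and 0.57 in the same order, of which that in siPAPα turned to 0.12 with TMM factors. Only in batch 2 did all 7 lie on the same side, above 0 and above the median of all genes. There the intervals of FDPS (−0.67 to 0.71) and FDFT1 (−0.04 to 0.32) included 0.

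A change was counted when the pair of libraries had more than 50 reads of the gene and the RPM differed by more than 2-fold. In siStar-PAP of batch 1, 1 of the 7 genes was lower (IDI1), where 26.2% of 10079 genes were, and 0 were higher, where 4.44% of genes were. In siPAPα, FDPS was lower and DHCR7 higher, beside 22.1% and 8.50% of 10808 genes. The library labelled siPAPγ had 2 lower (HMGCS1 and IDI1), beside 20.7% of 10163 genes, and 0 higher, beside 5.67%. In the double KD HMGCS1 was lower and DHCR7 higher, beside 26.5% and 6.98% of 10022 genes. In batch 2 none of the 6 genes with enough reads passed 2-fold, where 3.55% of 7127 genes were higher and 11.7% lower. Lower levels of 1 or 2 of 7 genes are near the share of all genes that were lower. With TMM factors, which set the middle of all genes near 0, IDI1 in siStar-PAP and siPAPγ and FDPS in siPAPα were no longer past 2-fold, while DHCR7 was past it in siPAPγ as well, and the lower levels of HMGCS1 and the higher levels of DHCR7 stayed past it.

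**Figure D1:**
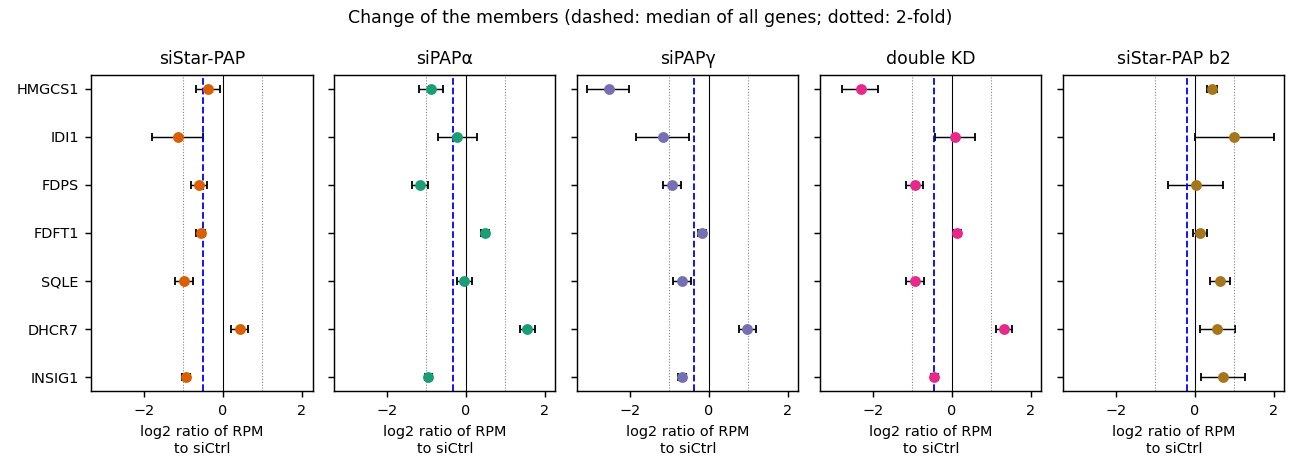
Log2 ratio of RPM to siCtrl (horizontal axis) of the 7 genes (rows) in the 5 comparisons (panels, b2 is batch 2). Points are single pairs of libraries, bars the 95% counting interval, the dashed line the median of all genes and dotted lines 2-fold. HMGCS1 lies far to the left in siPAPγ (−2.53) and the double KD (−2.30), DHCR7 to the right of the dashed line in every panel, and all 7 points to its right in batch 2.

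HMGCS1 showed the widest range of levels. It stood at 15.2 RPM in siCtrl, 11.8 with siStar-PAP, 8.25 with siPAPα, 2.64 with siPAPγ and 2.93 with the double KD (siCtrl 14.4 in the same table), and at 168 and 227 RPM in siCtrl and siStar-PAP of batch 2. Both libraries made with the siRNA labelled for PAPγ were thus the lowest, on 39 and 55 reads, and their log2 ratios to siCtrl were −2.53 (95% interval −3.07 to −2.02) and −2.30 (−2.77 to −1.85). In siPAPγ 98.6% of the genes over 50 reads had a higher ratio than HMGCS1. The ratio was −0.88 (−1.18 to −0.58) in siPAPα and −0.37 (−0.67 to −0.07) in siStar-PAP, where it was 0.12 above the median of all genes and turned to 0.11 with TMM factors. The reads of HMGCS1 came almost wholly from site 3 of its last exon, 1731 nt after the stop codon in the 3′UTR. That site took 156 of 174 reads in siCtrl, 33 of 39 in siPAPγ, 55 of 55 in the double KD and 847 of 847 in siCtrl of batch 2, and its own log2 ratio in siPAPγ was −2.61 (−3.20 to −2.06). For the double KD and batch 2, site 3 was the only last-exon site listed, so these shares cannot be set against those of batch 1. The 30 bases that end at this site on the minus strand of hg19 (chr5:43289502-43289531) are shown because nearly all reads of the gene end there, with the signal in capitals.
HMGCS1 site 3: ataactttgaAATAAAgttttagagaaatg
Site 4, 3661 nt after the stop codon at the annotated transcript end, held 25 of 207 reads in siPAPα (12.1%, Clopper-Pearson interval 7.97 to 17.3%) against 8 of 174 in siCtrl (4.60%, 2.01 to 8.86%). The 2 intervals overlap, which does not show that the shares are equal.

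IDI1, which isomerises the isoprenoid building block, was the lowest of the 7 genes in every library but the double KD, and its values are imprecise. It had 55 reads in siCtrl, 36 with siStar-PAP, 104 with siPAPα, 32 with siPAPγ, 95 with the double KD and 15 and 25 in batch 2. This gave 4.81, 2.18, 4.15, 2.16, 5.06, 2.97 and 5.88 RPM in the same order. siStar-PAP and siPAPγ were the low libraries beside siCtrl, with log2 ratios of −1.15 (−1.79 to −0.51) and −1.15 (−1.83 to −0.50), whereas the intervals of siPAPα and the double KD included 0. In batch 2 siStar-PAP was higher, with a log2 ratio of 0.99 (0.01 to 2.01) on 40 reads. The reads were spread over 6 sites of the last exon. Site 3, 543 nt after the stop codon, had the most in siCtrl (19 of 55, 34.5%), siStar-PAP (24 of 36, 66.7%), siPAPα (46 of 104, 44.2%) and the double KD (31 of 95, 32.6%). Site 6, 1279 nt after it, had the most in siPAPγ (12 of 32, 37.5%). In batch 2, where sites 2, 4 and 6 were not listed, site 5 had the most (8 of 15 in siCtrl and 17 of 25 in siStar-PAP). No pair of first and last sites reached 20 reads in both libraries, so RED was not computed between them.

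FDPS, which makes farnesyl diphosphate for sterols and for protein prenylation, was lower than the siCtrl of batch 1 in each of the 4 libraries set against it. Its level was 34.9 RPM in siCtrl, 23.0 with siStar-PAP, 15.6 with siPAPα, 18.4 with siPAPγ and 18.4 with the double KD, and 8.12 and 8.24 RPM in batch 2. None of these 4 KD libraries reached siCtrl, and the log2 ratios ran from −1.16 (−1.36 to −0.96) in siPAPα to −0.60 (−0.81 to −0.40) in siStar-PAP, the latter 0.11 below the median of all genes. In batch 2 the ratio was 0.02 with an interval of −0.67 to 0.71, so that neither a rise nor a fall of 1.5-fold could be told from no change. In the batch 1 table all reads lay at 1 site, 56 nt after the stop codon. In the table of the double KD, 4 of 403 siCtrl reads were listed at the intronic site chr1:155280766, and in batch 2 that site held 6 of 41 and 7 of 35 reads. GENCODE names 8 pseudogenes of FDPS and 3 of IDI1, and because reads had to map uniquely, reads shared with such copies may be missing from the levels of both genes.

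FDFT1 (squalene synthase) and SQLE (squalene epoxidase) carry out the first steps of the sterol branch. FDFT1 was at 111, 74.8, 155, 98.1 and 114 RPM in siCtrl, siStar-PAP, siPAPα, siPAPγ and the double KD, and at 107 and 118 RPM in batch 2. Its siCtrl level was nearly the same in both batches, with a log2 ratio of −0.05 (−0.20 to 0.10). siPAPα was the high library, with a log2 ratio of 0.48 (0.39 to 0.58), and siStar-PAP the low one at −0.56 (−0.68 to −0.45), 0.07 below the median of all genes. SQLE was at 31.2, 15.8, 30.5, 19.5 and 16.5 RPM in the same 5 libraries and at 46.9 and 73.2 RPM in batch 2. siStar-PAP, siPAPγ and the double KD were low, with log2 ratios of −0.99 (−1.22 to −0.75), −0.68 (−0.91 to −0.45) and −0.92 (−1.15 to −0.70), while siPAPα differed from siCtrl by −0.04 (−0.22 to 0.15). Every SQLE read in all libraries lay at 1 site, 338 nt after the stop codon, so its reads could show no shift between sites.

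DHCR7, which makes cholesterol in the last step from 7-dehydrocholesterol, went the other way. It was at 23.3 RPM in siCtrl, 31.2 with siStar-PAP, 68.3 with siPAPα, 45.9 with siPAPγ and 58.3 with the double KD, and at 16.0 and 23.8 RPM in batch 2. Every KD library lay above its own siCtrl. The log2 ratio was 1.55 (1.37 to 1.75) in siPAPα and 1.32 (1.13 to 1.52) in the double KD, and only 3.20% and 3.95% of the genes over 50 reads had a higher one. It was 0.98 (0.77 to 1.19) in siPAPγ, just inside 2-fold, 0.42 (0.21 to 0.64) in siStar-PAP and 0.57 (0.13 to 1.01) in siStar-PAP of batch 2. DHCR7 has 2 sites in its 3′UTR, 416 and 964 nt after the stop codon, the second of which is the annotated end of the canonical transcript. The 30 bases ending at each, on the minus strand of hg19 at chr11:71146005-71146034 and chr11:71145457-71145486, show that the nearer one carries AATAAA and the farther one ATTAAA (capitals).
DHCR7 site 1: tactcttgctaAATAAAagtgggagtgggg
DHCR7 site 2: ctttatATTAAActtcccctgttcaaataa
The farther site held 237 of 266 reads in siCtrl (89.1%, 84.7 to 92.6%), 477 of 516 with siStar-PAP (92.4%, 89.8 to 94.6%), 1681 of 1714 with siPAPα (98.1%, 97.3 to 98.7%), 657 of 679 with siPAPγ (96.8%, 95.1 to 98.0%) and 1072 of 1095 with the double KD (97.9%, 96.9 to 98.7%). The higher RPM of DHCR7 thus lay at the farther site, whose log2 ratios were 1.69 with siPAPα, 1.10 with siPAPγ and 1.46 with the double KD, while those of the nearer site were −0.95 (−1.71 to −0.18), −0.77 (−1.64 to 0.08) and −1.05 (−1.91 to −0.21) on 22 to 33 reads in each library. In batch 2 the farther site held 76 of 81 reads in siCtrl and 88 of 101 in siStar-PAP (93.8% and 87.1%), with overlapping intervals.

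INSIG1, the sterol-dependent brake on SREBP release, was the most abundant of the 7 genes in siCtrl of batch 1. It was at 159 RPM in siCtrl, 83.2 with siStar-PAP, 82.3 with siPAPα, 98.8 with siPAPγ and 118 with the double KD, but at only 9.90 and 16.2 RPM in batch 2. siCtrl was higher than the 4 KD libraries set against it, and siStar-PAP the higher of the 2 in batch 2. The log2 ratios were −0.93 (−1.03 to −0.83), −0.95 (−1.04 to −0.86), −0.68 (−0.79 to −0.58) and −0.44 (−0.53 to −0.35) in the order above, the last at the median of all genes, and 0.71 (0.17 to 1.27) in batch 2 on 50 and 69 reads. INSIG1 had 4 sites in its 3′UTR, 325, 942, 1489 and 1965 nt after the stop codon. The 30 bases ending at sites 1, 2 and 4, on the plus strand of hg19 at chr7:155100276-155100305, chr7:155100893-155100922 and chr7:155101916-155101945, are shown because their log2 ratios differed although each carries the same signal, ATTAAA (capitals).
INSIG1 site 1: tgtgATTAAAacaagttgccatatttcaaa
INSIG1 site 2: ctgcATTAAAcgtgtggtgtttctagtcaa
INSIG1 site 4: tttttacttttATTAAAggttcaaaaccaa
For comparison, 37172 last-exon sites of batch 1 were taken, each with at least 5% of its gene's last-exon reads in 1 library. AATAAA, looked for first, stood in the 40 bases ahead of 46.6% of them and ATTAAA ahead of 15.8%, while 37.6% had neither, as had INSIG1 site 3. Searched on the transcribed strand, the trimer ATA, which the study ties to Star-PAP, occurred between 100 and 41 bases ahead of INSIG1 site 4 but not of its other sites or of those of DHCR7, and ahead of 59.4% of the same 37172 sites. Among the other genes described here, it occurred ahead of every last-exon site of HMGCS1, IDI1 and SQLE and of FDFT1 sites 1 and 2. It was absent ahead of FDFT1 sites 3 and 4 and of the last-exon site of FDPS.

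Site 2 of INSIG1 held a lower share of the reads in every KD set against the siCtrl of batch 1. It held 383 of 1815 reads in siCtrl (21.1%, 19.2 to 23.1%), 117 of 1377 with siStar-PAP (8.50%, 7.08 to 10.1%), 340 of 2065 with siPAPα (16.5%, 14.9 to 18.1%), 151 of 1462 with siPAPγ (10.3%, 8.82 to 12.0%) and 273 of 2215 with the double KD (12.3%, 11.0 to 13.8%). All 4 KD intervals lay below that of siCtrl, which in the table of the double KD was 20.9% (19.1 to 22.8%). In RPM, site 2 changed by a log2 ratio of −2.25 (−2.56 to −1.94) in siStar-PAP, against −0.74 (−0.86 to −0.62) at site 1 and −0.51 (−0.88 to −0.14) at site 4. Site 4, the annotated transcript end, held 6.83% (5.71 to 8.09%) of the reads in siCtrl and 9.15% (7.68 to 10.8%), 22.1% (20.4 to 23.98%), 14.1% (12.3 to 16.0%) and 15.3% (13.8 to 16.9%) in siStar-PAP, siPAPα, siPAPγ and the double KD. Its interval lay above that of siCtrl in the last 3 and overlapped it in siStar-PAP, which does not show that those shares are equal. At site 4 the RPM itself was above siCtrl in siPAPα (log2 ratio 0.75, 0.46 to 1.05), siPAPγ (0.36, 0.03 to 0.69) and the double KD (0.73, 0.43 to 1.04), in the libraries where the gene as a whole was lower. In batch 2 site 2 held 1 of 50 and 3 of 69 reads and site 4 held 7 in each library, so these changes were not detectable at that depth.

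**Figure D2:**
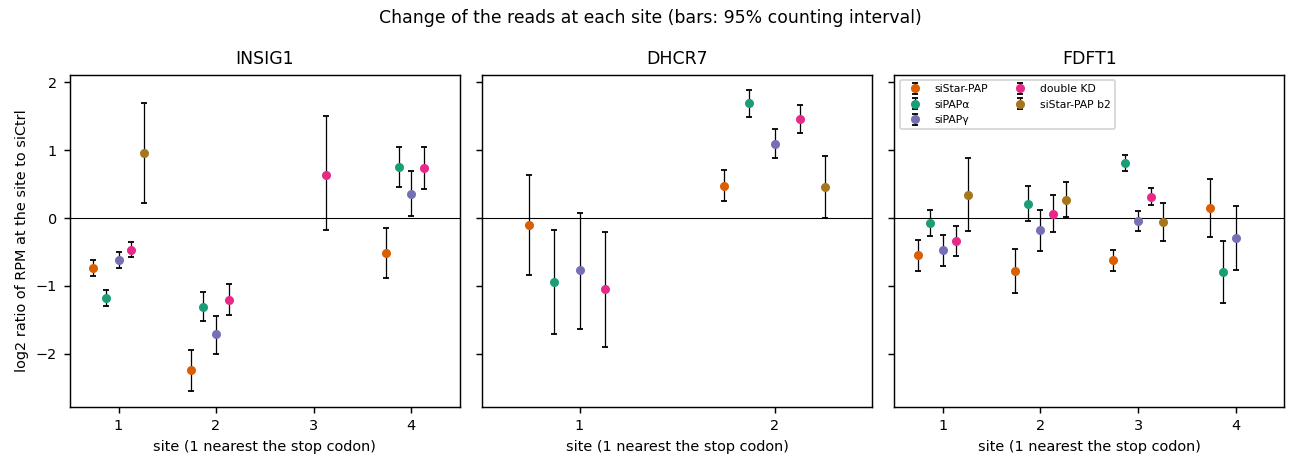
Log2 ratio of RPM to siCtrl (vertical axis) at each last-exon site (horizontal axis) of INSIG1, DHCR7 and FDFT1 with more than 50 reads in the pair of libraries, coloured by comparison, with 95% counting intervals. INSIG1 site 2 is lowest in siStar-PAP (−2.25), and DHCR7 site 2 is above 0 in all 5 comparisons.

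The shift between nearer and farther sites was summarised as the change of the log2 ratio of distal to proximal reads against siCtrl (RED), taken between the first and the last site of the last exon with at least 5% of the gene's reads in 1 library of the table and counted as called beyond 2-fold. DHCR7 and INSIG1 were called with more distal use in siPAPα (RED 2.64 and 1.93) and in the double KD (2.51 and 1.20), beside 36.2% of 4707 and 42.4% of 4191 genes, and DHCR7 in siPAPγ (1.87), beside 27.4% of 4431 genes. In siStar-PAP of batch 1, 0 of the 3 genes with a pair were called, beside 29.5% of 4316 genes with more and 27.4% with less distal use. In batch 2 DHCR7 was called with less distal use (−1.17, interval −3.07 to 0.50, on 5 and 13 proximal reads), beside 23.3% of 2581 genes with less and 24.9% with more. More distal use in siPAPα and the double KD was common among all genes, with a median RED of 0.32 and 0.45. The call of INSIG1 depended on the pair of sites: between the 2 sites with most reads, 1 and 2, its RED was −1.50 with siStar-PAP, −0.13 with siPAPα, −1.10 with siPAPγ and −0.74 with the double KD, where site 2, in place of site 4, is the distal one. FDFT1, with sites 58, 359, 689 and 1393 nt after the stop codon, stayed within 2-fold, with a RED of 0.70, −0.73 and 0.18 in siStar-PAP, siPAPα and siPAPγ, and between its 2 sites with most reads the first 2 of these were −0.07 and 0.88. Its site 3, the annotated transcript end, was at 55.1% (52.3 to 57.9%) of the reads in siCtrl and at 69.0% (67.6 to 70.5%) in siPAPα. Site 4 of FDFT1 was listed in the batch 1 table only, so the RED of 0.66 in the double KD was taken to site 3.

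**Figure D3:**
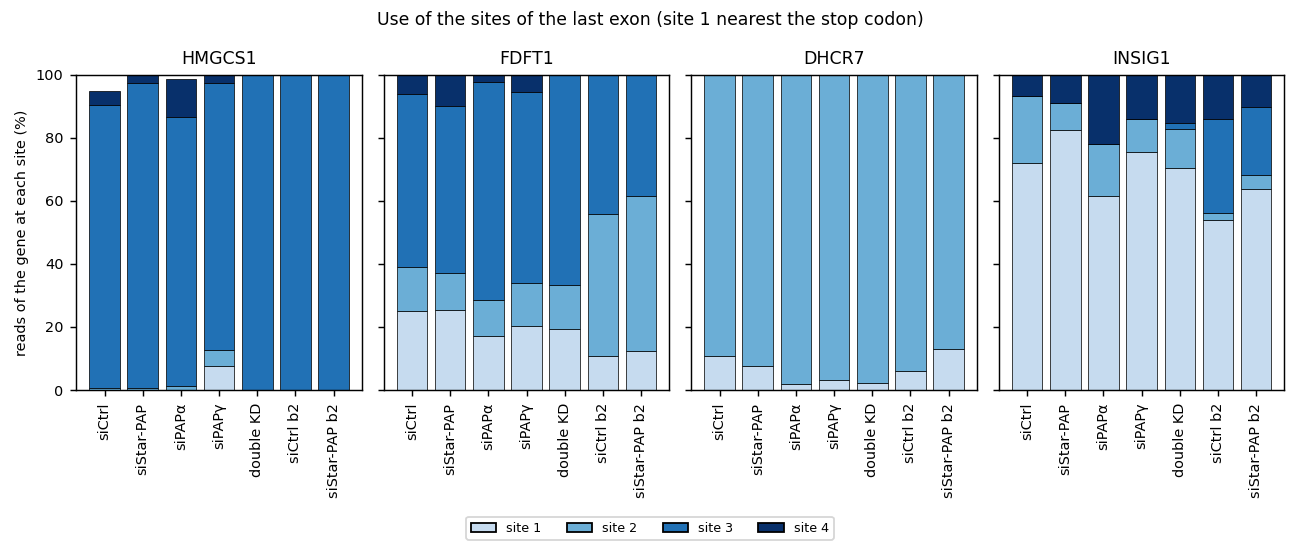
Percent of the reads of HMGCS1, FDFT1, DHCR7 and INSIG1 (vertical axis) at each site of the last exon in each library (horizontal axis, b2 is batch 2), where bars short of 100% leave the intronic reads. Site 3 dominates HMGCS1 in all libraries, but for the double KD and batch 2 it is the only last-exon site listed. The share of INSIG1 site 4 is 6.83% in siCtrl and 22.1% in siPAPα.

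A larger share of genes differed between the 2 siCtrl libraries than between any KD library and its siCtrl. From batch 1 to batch 2, HMGCS1 was 11.0-fold higher (log2 ratio 3.46, 3.22 to 3.71), INSIG1 16.0-fold lower (−4.00, −4.44 to −3.60) and FDPS 4.30-fold lower (−2.10, −2.61 to −1.64). The other 4 genes stayed within 2-fold. Of all 9743 genes with more than 50 reads, 24.1% were higher and 37.7% lower by more than 2-fold, and the protocol and the batch cannot be told apart here. The levels of the 2 batches come from tables clustered separately.

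**Figure D4:**
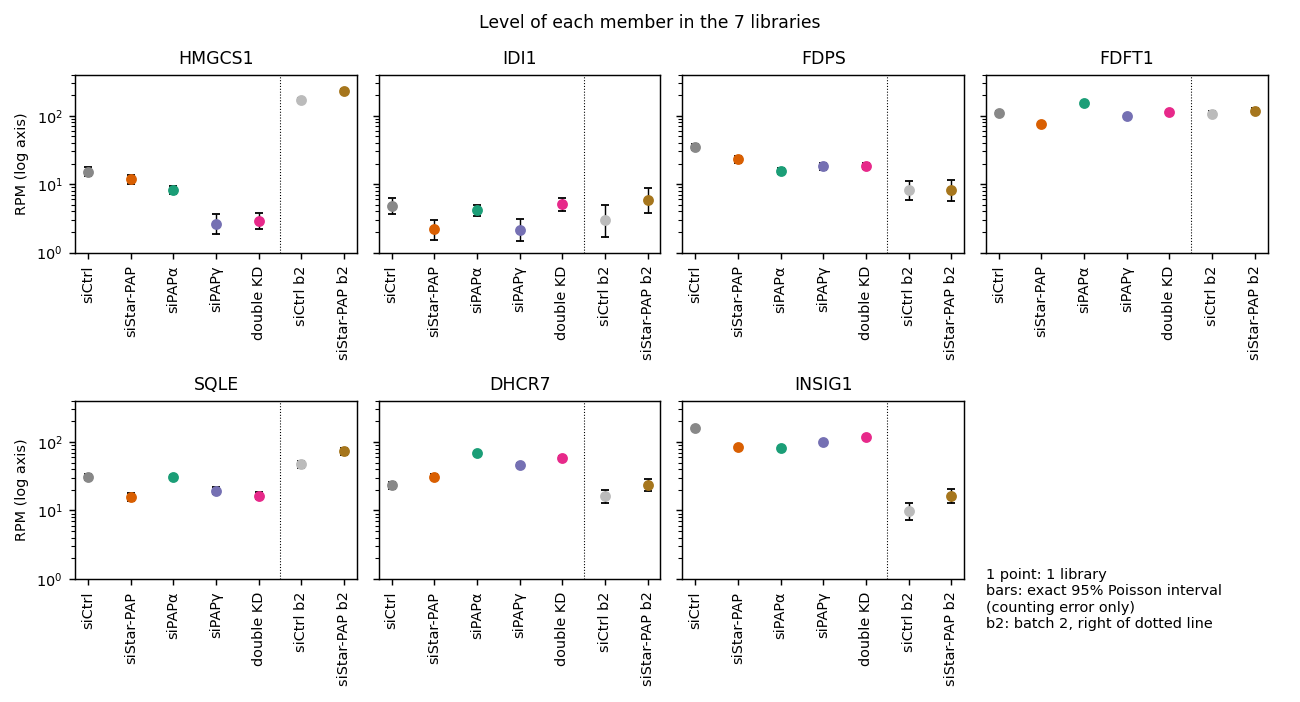
RPM of each of the 7 genes (panels, logarithmic vertical axis) in the 7 libraries, with batch 2 (b2) right of the dotted line and exact 95% Poisson intervals. HMGCS1 is at 168 and 227 RPM in batch 2 and at most 15.2 RPM in the other libraries, and INSIG1 is at 9.90 and 16.2 RPM in batch 2 and at least 82.3 RPM in the others.

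siStar-PAP was the only knockdown with a library in both batches. In the edgeR quasi-likelihood fit of both with batch as a block, 0 of the 7 genes had a Benjamini-Hochberg adjusted p below 0.05, where 2.32% of the 11878 genes tested did. The gene nearest to a call was DHCR7, with a log2 fold change of 0.85 (SE 0.36), higher in both batches, an unadjusted p of 0.026 and an edgeR adjusted p of 0.253, and it was the only 1 of the 7 below an unadjusted 0.05. DESeq2 also called 0 of the 6 genes to which it gave an adjusted p, with 0 below an unadjusted 0.05. The other 6 genes had log2 fold changes of 0.04 (FDPS, SE 0.38) to 0.39 (HMGCS1, SE 0.33), and in RPM all 6 were below siCtrl in batch 1 and above it in batch 2. In batch 2 the RPM ratio intervals of FDPS (−0.67 to 0.71) and FDFT1 (−0.04 to 0.32) included 0. On the TMM scale of the fit HMGCS1 was above siCtrl in both batches (0.11 and 0.61), and the other 5 genes kept opposite signs. On PASS read totals in place of TMM factors, the log2 fold changes of IDI1, FDPS, FDFT1, SQLE and INSIG1 were below 0, at −0.33 to −0.15, so their direction in this fit depends on the scaling.

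The rest of the pathway was taken from 6 lists with 46 distinct genes. Of those with more than 50 reads, 3 were higher and 8 lower by more than 2-fold in siStar-PAP (38 genes, beside 4.44% and 26.2% of all genes), 4 and 9 in siPAPα (40, beside 8.50% and 22.1%), 4 and 1 in siPAPγ (39, beside 5.67% and 20.7%), 4 and 11 in the double KD (35, beside 6.98% and 26.5%) and 1 and 2 in siStar-PAP of batch 2 (28, beside 3.55% and 11.7%). Their median log2 ratios were −0.41, −0.18, −0.21, −0.39 and −0.11, close to those of all genes. Of those genes, MVD had the lowest ratio in each of the 4 comparisons with the siCtrl of batch 1. It makes isopentenyl diphosphate, between HMGCS1 and IDI1. MVD had 277 reads in siCtrl and 35, 95, 78 and 64 in siStar-PAP, siPAPα, siPAPγ and the double KD. These are log2 ratios of −3.52, −2.68, −2.20 and −2.83. PMVK, on the same list, was above siCtrl in each of them (0.33, 0.89, 0.36 and 0.75). MVK was below it (−1.15, −0.51, −0.65 and −0.11), with intervals that included 0 in all but siStar-PAP. In batch 2 MVD and PMVK were not among the genes with more than 50 reads. In siStar-PAP the fatty acid enzymes ELOVL6 (−2.41) and FASN (−1.78) were also low, while SCD, a fatty acid desaturase, was high (1.08). FASN was at 846 RPM in siCtrl and 247 RPM in siStar-PAP, the highest levels among the pathway genes named here. In siStar-PAP of batch 2 the log2 ratios were −0.89 for ELOVL6, 0.45 (−0.14 to 1.04) for FASN and 0.95 for SCD.

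Genes of the SREBP and sterol sensing machinery differed in direction. SCAP, which escorts the SREBPs, was higher in siStar-PAP (1.23), siPAPγ (1.49) and the double KD (1.46). In siStar-PAP of batch 2 its log2 ratio was 0.22, with an interval that included 0 (−0.09 to 0.54), on 169 and 166 reads. MBTPS2, a protease that releases the SREBPs, was lower in siPAPα (−1.63) and the double KD (−2.05). NR1H2, a sterol-activated nuclear receptor, was higher in siStar-PAP (1.86), siPAPα (2.16) and siPAPγ (1.53), on only 11 reads in siCtrl. LSS, which closes the sterol rings after SQLE, was higher in siPAPγ (1.97) and the double KD (1.19) on 33 reads in siCtrl. In siPAPα the sterol exporter ABCG1 was lower (−2.53) and SCD (1.89) and MYLIP (1.72), an E3 ubiquitin ligase induced by sterols, were higher. In the double KD DHDDS, of dolichol synthesis, was lower (−1.58) and MYLIP higher (1.16). In batch 2 MSMO1, of the sterol branch, was higher (1.42), and ABCG1 (−1.95) and FADS1 (−1.16), a fatty acid desaturase, were lower. In siStar-PAP of batch 1 the log2 ratios were 0.27 for MSMO1, −1.44 for ABCG1 and −1.78 for FADS1.

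The genes whose log2 ratios over the 5 comparisons lay nearest to the medians of the 7 genes were KCTD3, ECHS1, IMP4, ACAT2 and MSH6, at root mean square differences of 0.143, 0.146, 0.149, 0.165 and 0.171 among 3746 genes that had 50 reads or more in every library. ACAT2, the enzyme ahead of HMGCS1, was the only 1 of these 5 on the pathway lists, with log2 ratios of −0.53, −0.06, −0.82, −0.65 and 0.78 in the order of the comparisons. Of the 7 genes themselves, SQLE lay closest to their median (0.286, with 2.30% of the 3746 genes nearer), and DHCR7 lay farthest (1.42, with 93.8% nearer), followed by HMGCS1 (1.21, 88.4%). The 5 comparisons share control libraries, since 4 of them use the siCtrl of batch 1, so likeness across them is partly built in.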

How the data were processed

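PASS reads were measured with 3′READS (batch 1 and the double KD) or 3′READS+ (batch 2) in 7 HEK293 libraries. Per the study's methods, the authors aligned the reads against hg19 by Bowtie2, retained those with MAPQ above 10 and at least 2 untemplated Ts, clustered sites within 24 nt, kept PASs above 5% of a gene in 1 sample, and deposited read counts per PAS without normalization. Each of the deposited counts columns matched 1 library by its name (0 were left over), and siCtrl of batch 1 recurs in the double KD table, clustered again.

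Sense rows were summed per gene and scaled by the PASS totals of the study's mapping statistics, which cover reads outside the listed sites too. RPM and log2 ratios carry exact 95% Poisson and conditional binomial intervals, and shares Clopper-Pearson intervals. Reads have no molecular identifiers and the labels name no separate cultures, so intervals cover counting error only. siStar-PAP was fitted over both batches with edgeR 4.0.16 (quasi-likelihood, TMM, filterByExpr, 1 residual degree of freedom), with batch as a block because each batch has its own protocol and siCtrl (deviations of same-batch libraries correlated at r = 0.871 over 11878 genes). The step was tested on simulated data. DESeq2 1.42.0, R 4.3.3, Python 3.11.15 and scipy 1.17.1 were used. Signals were searched on the transcribed strand of GRCh37, in the 40 bases ahead of each site.

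The members and lists were chosen with earlier results of these data known. The text names the 7 members, up to 3 rises and 3 falls of the pathway lists per comparison past 2-fold, the 5 nearest profiles and the targeted genes. Alternatives were the scaling (table totals, TMM, DESeq2 size factors), last-exon reads only, 1 added read, other minimums of reads and folds, other site filters and pairs, Fisher's exact test, RLE factors, DESeq2, no filter, no block and each batch left out. Antisense rows were left out.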

Additional observations from a re-analysis of the deposited data

Results flagged for a closer look

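Of the 7 genes, 6 had siStar-PAP log2 ratios of opposite sign in the 2 batches, and the difference was not tested because each batch has 1 library per condition. In batch 2 the intervals of FDPS (−0.67 to 0.71) and FDFT1 (−0.04 to 0.32) included 0, and with last-exon reads only FDPS was at −0.14. The log2 ratio of siStar-PAP to siCtrl in batch 2 minus that in batch 1 was 2.13 for IDI1 (−1.15 and 0.99), 1.65 for INSIG1 (−0.93 and 0.71), 1.63 for SQLE (−0.99 and 0.64), 0.81 for HMGCS1 (−0.37 and 0.44), 0.71 for FDFT1 (−0.56 and 0.14) and 0.63 for FDPS (−0.60 and 0.02). These directions are of RPM, and with TMM factors HMGCS1 was above siCtrl in both batches (0.11 and 0.61). The median of all genes differed less between the batches, at −0.49 and −0.19. Read against it, HMGCS1 and DHCR7 were above the median in both batches, and the other 5 genes were below it in batch 1 and above it in batch 2. Batch and protocol cannot be told apart.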

How the results depend on the processing

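Scaling moved levels most. The median log2 ratio of the 7 genes went to −0.13 with TMM and −0.13 with DESeq2 size factors in siStar-PAP, turned to 0.12 and 0.093 in siPAPα, and went to −0.42 (table totals), −0.31 and −0.33 in siPAPγ, and to −0.18, −0.014 and −0.0077 in the double KD. With TMM and with DESeq2 size factors alike, the number of the 7 genes past 2-fold was 0 in siStar-PAP and 1 in siPAPα. Under TMM the share of all genes higher and lower by more than 2-fold was 11.6% and 12.8% in siStar-PAP, 15.0% and 13.8% in siPAPα, 11.3% and 11.0% in siPAPγ, 14.7% and 15.0% in the double KD and 5.98% and 8.26% in batch 2. More than 200 reads left 0 in siStar-PAP and 1 in siPAPγ. At 1.5-fold 4, 4, 6, 4 and 2 genes passed in siStar-PAP, siPAPα, siPAPγ, the double KD and batch 2, where 10.2%, 17.2%, 12.2%, 14.3% and 11.4% of all genes were higher and 43.2%, 36.5%, 37.7%, 41.5% and 26.3% lower. Last-exon reads and 1 added read changed none of these counts.

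The fit of siStar-PAP over both batches called 0 of the 7 genes under every alternative that gives a test. Without the replicate block the same fit called 0 of the 7 and 0 of all genes, with 54 at an unadjusted p below 0.05, and the log2 fold changes of FDPS and INSIG1 turned to −0.018 and −0.27. PASS totals gave 76 calls among all genes, no filter 444, against 276, and turned the median of the 7 genes from 0.18 to −0.17, with IDI1 at −0.15, FDPS at −0.33, FDFT1 at −0.21, SQLE at −0.17 and INSIG1 at −0.20. Leaving out a batch leaves values without a test: the median of the 7 genes was 0.74 without batch 1 and −0.13 without batch 2. In the same order IDI1 was at 1.16 and −0.67, FDPS at 0.20 and −0.13, FDFT1 at 0.32 and −0.084, SQLE at 0.82 and −0.51 and INSIG1 at 0.89 and −0.45.

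For site use, the 2 sites with most reads called 2 genes in siStar-PAP (IDI1 and INSIG1, beside 54.4% of all genes), 2 in siPAPα (DHCR7 and HMGCS1, 56.1%), 2 in siPAPγ (DHCR7 and INSIG1, 50.1%) and 1 in the double KD (DHCR7, 60.9%). They turned INSIG1 to −0.13 in siPAPα and −0.74 in the double KD, and FDFT1 to −0.07 in siStar-PAP and 0.88 in siPAPα. Fisher's exact test with Benjamini-Hochberg adjustment, which compares the reads of 2 libraries, called 1 in siStar-PAP (FDFT1, beside 44.6% of all genes), 3 of 3 in siPAPα (49.2%), 2 in siPAPγ (DHCR7 and INSIG1, 36.4%), 3 of 3 in the double KD (55.5%) and 0 in batch 2 (15.1%). A 2% site filter and sites merged within 50 nt changed no count. Depth limited IDI1 in all libraries and INSIG1, FDPS and DHCR7 in batch 2.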
